A study of Mus musculus with 82 samples.

Results

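The NFAT family and Rcan1 were followed as 5 genes, Nfatc1, Nfatc2, Nfatc3, Nfat5 and Rcan1, taken by gene symbol from the 21823 genes present in all 3 count tables of the series. All 5 were found in every table, and all 5 passed the filter on low counts in every comparison. On GRCm38 they are Nfatc1 (ENSMUSG00000033016, chr18:80606205-80713071, minus strand), Nfatc2 (ENSMUSG00000027544, chr2:168476410-168601657, minus strand), Nfatc3 (ENSMUSG00000031902, chr8:106058840-106130537, plus strand), Nfat5 (ENSMUSG00000003847, chr8:107293470-107379517, plus strand) and Rcan1 (ENSMUSG00000022951, chr16:92391953-92470867, minus strand). The series measured messenger RNA in 82 libraries of transferred mouse T cells that recognize ovalbumin: OT-II cells belong to the CD4 lineage and OT-I cells to the CD8 lineage, and both carry a transgenic antigen receptor. Mice that received both cell types were given pGal (pGal-OVA, a synthetically glycosylated ovalbumin), plain OVA or saline, and cells were sorted from pooled spleen and lymph nodes 4 days later. OVA was given at 5 µg; the labels give pGal both as 5 µg and as a molar equivalent of antigen, so equal antigen amounts cannot be assumed.

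In the prophylactic experiment antigen followed the transfer by 1 day, so the cells met antigen without adjuvant. Each of its libraries came from 3 pooled mice, and the labels name 2 batches. It holds 5 pGal, 4 OVA and 5 saline libraries of OT-II cells and 5, 5 and 5 of OT-I cells. In the therapeutic experiment all recipients, saline controls included, had been immunized with OVA in complete Freund's adjuvant a month before treatment, and each library came from 1 mouse. It holds 10 pGal, 8 OVA and 7 saline libraries labelled OT-II and 10, 10 and 8 labelled OT-I. Each library is a bulk sample of sorted cells, so fewer cells of a type and less RNA per cell cannot be told apart. The sources used here give no age for the mice.

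NFAT proteins are transcription factors that link the antigen receptor to gene expression. Calcium that enters after receptor engagement activates the phosphatase calcineurin, which removes phosphates from Nfatc1, Nfatc2 and Nfatc3 and lets them enter the nucleus, where they act with AP-1 factors during activation and without them in the programs of unresponsiveness and exhaustion. Nfat5 lacks the calcineurin docking site of the other members and responds mainly to osmotic stress. Rcan1 encodes a regulator that binds calcineurin and can inhibit it, and its own transcription responds to NFAT. Messenger RNA levels do not report whether NFAT proteins are in the nucleus, and gene totals do not separate the long and short forms of Nfatc1 or the isoforms of Rcan1.

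Cd4 and Cd8a served to check the labelled cell types. Of the 53 therapeutic libraries, 42 had at least 10 times more of the labelled lineage gene than of the other in CPM, read counts scaled to a common library total. In 11 libraries the lineage genes were those of the opposite cell type. These are the libraries labelled OT-I pGal 5 and 7, OT-I OVA 6 and 8, OT-I saline 3 and 6, OT-II pGal 5 and 7, OT-II OVA 6 and 8, and OT-II saline 3. They were left out of the therapeutic comparisons and not moved to another group, and values with all libraries as labelled are given where a call depends on them. Among the 29 prophylactic libraries, 4 had 50 CPM or more of the other lineage gene. At least 100 CPM of the B cell gene Cd79a was found in 4, 2 of them in both sets. The 4 with the other lineage gene also missed the ratio of 10, although their labelled gene was the higher one. All these prophylactic libraries were kept, so the ratio decided exclusion in the therapeutic experiment only. OT-II OVA batch 2 library 2 was in both sets, with 248 CPM of Cd4, 118 of Cd8a and 1389 of Cd79a. Library totals ranged between 21.2 and 68.2 M estimated counts in the prophylactic and between 22.6 and 62.5 M in the therapeutic experiment. Mitochondrially encoded genes took 0.461% to 2.10% of counts in prophylactic libraries and 0.273% to 9.08% in therapeutic ones. Over all libraries the members had medians of 17495 counts for Nfatc1, 4358.5 for Nfatc2, 11214 for Nfatc3, 1035 for Nfat5 and 636 for Rcan1.

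Nfatc1 was higher after pGal than after OVA or saline in prophylactic OT-II cells, and higher after OVA than after saline in prophylactic OT-I cells. Nfatc2 was higher after OVA than after saline in therapeutic OT-II cells, and Rcan1 was lower after pGal than after saline in prophylactic OT-I cells. That Rcan1 call was kept in 6 of 23 alternatives. Uncalled Rcan1 log2 fold changes were of similar size after OVA in the same cells (-0.41) and in prophylactic OT-II cells (-0.48 after pGal, -0.46 after OVA). Nfatc3 and Nfat5 passed the test in none of the 20 comparisons. Over the 12 treatment comparisons 5 of 60 values were called, in comparisons where 0% to 11.7% of all genes were called. Over the 6 tests of whether a treatment effect differs between cell types 3 of 30 were called, where 0% to 1.21% of all genes were called. Over the 2 comparisons of OT-II with OT-I cells after saline 0 of 10 were called, where 14.7% and 9% of all genes were called. A value was called at an adjusted p under 0.05 from edgeR's quasi-likelihood test, with Benjamini-Hochberg adjustment over all genes tested. In the 12 comparisons with no member called, 13 of 60 values had an unadjusted p under 0.05, and 2 were called by DESeq2.

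Nfatc1 is the member whose transcription is itself raised by NFAT in stimulated lymphocytes, an autoregulatory loop that makes a short form of the protein. In prophylactic OT-II cells it stood at 687, 682, 546, 672 and 585 CPM in the pGal libraries. The OVA libraries had 397, 411, 411 and 483 CPM, and the saline libraries 345, 312, 317, 359 and 275 CPM. Every pGal library was above every OVA library, and every OVA library was above every saline library. How many of all genes separate groups in this way was not counted, here or for other groups without overlap below. The highest OVA library was 1 of the 4 rich in Cd79a, and so was the lowest pGal library.

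**Figure D1:**
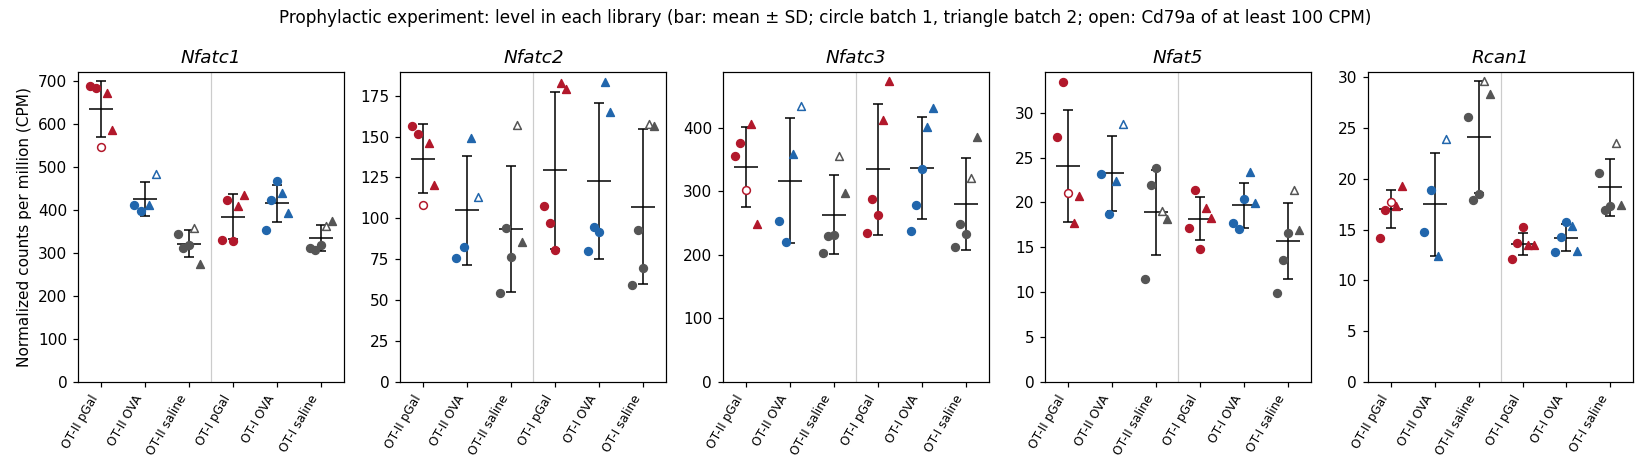
Normalized CPM of each member in the 29 prophylactic libraries, by cell type and treatment, with mean and SD as bars; circles are batch 1, triangles batch 2 and open symbols libraries with at least 100 CPM of Cd79a. Nfatc1 in OT-II cells lay between 546 and 687 CPM after pGal, above all other groups, while Rcan1 in OT-I cells was lower after pGal and after OVA than in any saline library.

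Against saline, Nfatc1 in these OT-II cells averaged 634 ± 64.8 CPM after pGal (SD, n = 5) and 322 ± 32.3 CPM after saline (SD, n = 5). The log2 fold change was 0.99 (SE 0.105, 95% interval 0.76 to 1.22, edgeR adjusted p = 8.59e-05), and 5 of 5 pGal libraries were above the saline mean of their batch. In this comparison 11.7% of 14128 genes tested were called, and Nfatc1 was 1 of 5 members called. Within batches the log2 fold change was 0.96 in batch 1 (edgeR adjusted p = 0.00208) and 1.00 in batch 2 alone (edgeR adjusted p = 0.196), where only 2 libraries stood on each side. Without the libraries rich in Cd79a it was 1.10 (edgeR adjusted p = 8.69e-06), and without those carrying the other lineage gene it was 1.04 (edgeR adjusted p = 1.04e-05).

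Against OVA, Nfatc1 in prophylactic OT-II cells averaged 634 ± 64.8 CPM after pGal (SD, n = 5) and 425 ± 38.9 CPM after OVA (SD, n = 4). Its log2 fold change was 0.58 (SE 0.112, 95% interval 0.34 to 0.82, edgeR adjusted p = 0.0195). It was 1 of 5 members called, where 1.87% of 14128 genes were called. The call was kept in 8 of 14 fits that each left out 1 library, with log2 fold changes of 0.54 to 0.65 and adjusted p of 0.00981 to 0.0916. It was lost without batch 1 pGal library 1 or 2, batch 2 pGal library 1, batch 1 OVA library 2 or 3, or batch 2 OVA library 1. Within batches it was 0.66 in batch 1 (edgeR adjusted p = 0.0389) and 0.47 in batch 2 (edgeR adjusted p = 0.532). Without the Cd79a-rich libraries it was 0.71 (edgeR adjusted p = 0.00160). Leaving out the libraries carrying the other lineage gene, 1 of them an OVA library, gave 0.71 (edgeR adjusted p = 0.00318).

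B cells transcribe Nfatc1 too, so the B cell marker list is given beside these values. Of 10 listed genes 9 were in the tables. Their summed level in OT-II cells ran between 31.6 and 3323 CPM after pGal (median 53.4), between 55.4 and 6424 CPM after OVA (median 80.5) and between 47.0 and 686 CPM after saline (median 107). The highest sum after OVA belonged to batch 2 library 2, which also held the highest Nfatc1 level of its group. The Nfatc1 differences after pGal without the Cd79a-rich libraries are given above. The part of B cell transcripts in the Nfatc1 levels was not tested.

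Between OVA and saline in prophylactic OT-II cells Nfatc1 averaged 425 ± 38.9 CPM after OVA (SD, n = 4) and 322 ± 32.3 CPM after saline (SD, n = 5), a log2 fold change of 0.41 (SE 0.111) that missed the threshold (edgeR adjusted p = 0.298). Its 4 OVA libraries did not overlap the saline libraries. Here 0.163% of 14128 genes and 0 of 5 members were called by edgeR, 2 members had an unadjusted p under 0.05, and DESeq2 called 1, Nfatc1 (log2 fold change 0.41, adjusted p = 0.0310). Both antigen groups were set against the same saline libraries.

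In prophylactic OT-I cells the levels of Nfatc1 were 329, 423, 328, 408 and 433 CPM in the pGal libraries, 354, 422, 468, 438 and 393 CPM in the OVA libraries, and 312, 307, 318, 362 and 374 CPM after saline. The 3 groups overlapped. Against saline the log2 fold change was 0.34 after OVA (SE 0.0895, 95% interval 0.15 to 0.53, edgeR adjusted p = 0.0372), with 5 of 5 OVA libraries above the saline mean of their batch. It was 1 of 5 members called, where 5.39% of 13802 genes were called. That call was lost in 13 of 23 alternatives, among them both batches alone, which gave 0.43 in batch 1 (edgeR adjusted p = 0.0694) and 0.19 in batch 2 (edgeR adjusted p = 0.441). It was also lost without any 1 of the 5 saline libraries or of batch 1 OVA libraries 2 and 3, with adjusted p up to 0.136. After pGal the log2 fold change against saline was 0.21 (SE 0.0893, edgeR adjusted p = 0.204), and between pGal and OVA it was -0.13 (SE 0.0894, 95% interval -0.32 to 0.06, edgeR adjusted p = 1). In the last comparison edgeR called 0 of 5 members and 0% of 13802 genes, no member had an unadjusted p under 0.05, and DESeq2 called 0 members.

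The difference between cell types was tested directly. Mice received both cell types, and the labels do not say which OT-II and OT-I libraries came from the same mice, so the fit took all libraries as independent. The pGal effect on Nfatc1 against saline was larger in OT-II than in OT-I cells by 0.78 on the log2 scale (SE 0.136, edgeR adjusted p = 0.00336), a test in which 1.21% of 14845 genes and 1 of 5 members were called. That against OVA was larger by 0.70 (SE 0.141, edgeR adjusted p = 0.0285), where 0.519% of genes and 1 of 5 members were called. With same-numbered OT-II and OT-I libraries taken as pairs, the pGal against OVA call was lost and the pGal against saline call was kept. Within batches the difference for pGal against saline was 0.77 in batch 1 (edgeR adjusted p = 0.0367) and 0.83 in batch 2 (edgeR adjusted p = 0.419). That for pGal against OVA was 0.87 in batch 1 (edgeR adjusted p = 0.0227) and 0.47 in batch 2 (edgeR adjusted p = 0.672). The pGal against saline difference kept its call in 29 of 29 fits that left out 1 library and in 36 of 37 alternatives in all, and the pGal against OVA difference in 21 of 29 and in 27 of 37. Among the left-out libraries, the pGal against OVA call was lost without OT-I pGal library 1 or 3, OT-I OVA library 2 or 3, OT-II pGal library 1 or 2, or OT-II OVA library 2 or 3, all of batch 1, with adjusted p up to 0.0735. For OVA against saline edgeR and DESeq2 called 0 of 5 members and no member had an unadjusted p under 0.05, where 0.0337% of genes were called. With no antigen given, prophylactic OT-II and OT-I cells had 322 ± 32.3 and 335 ± 31.1 CPM of Nfatc1 (SD, n = 5 each), overlapping ranges with a log2 fold change whose 95% interval ran from -0.22 to 0.22.

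**Figure D2:**
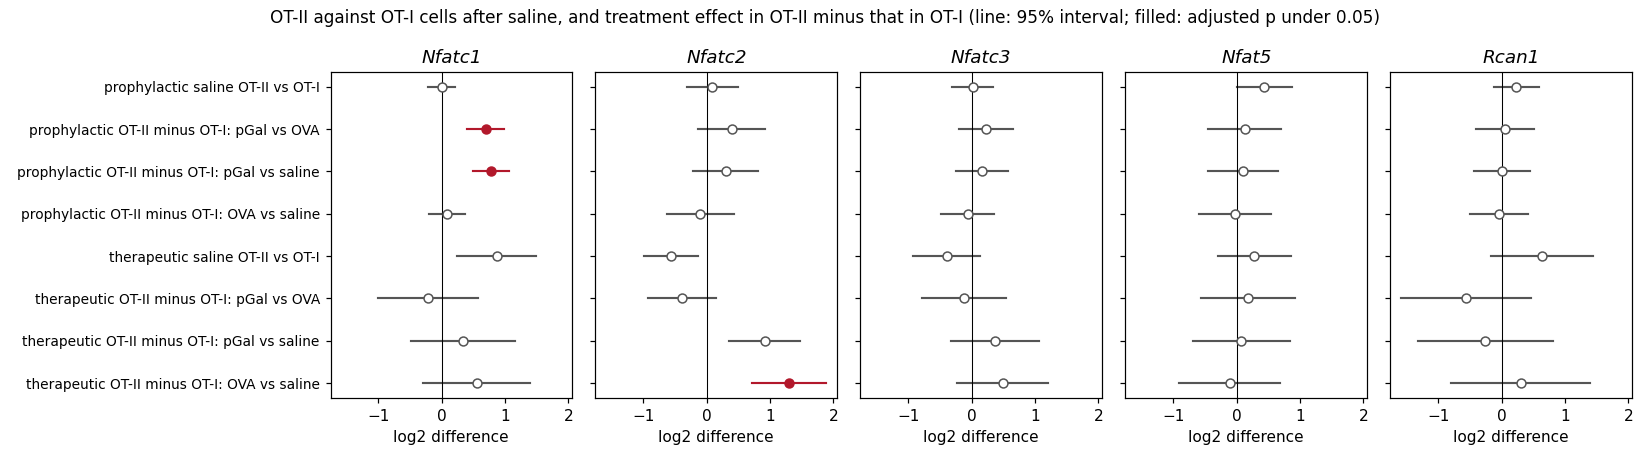
Log2 differences of each member between OT-II and OT-I cells after saline, and of the treatment effect in OT-II minus that in OT-I cells, in both experiments; points are edgeR estimates, lines 95% intervals and filled points have an adjusted p under 0.05. The filled points are Nfatc1 for pGal against OVA (0.70) and pGal against saline (0.78) in the prophylactic experiment and Nfatc2 for OVA against saline (1.30) in the therapeutic one.

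In the therapeutic experiment Nfatc1 varied widely within OT-II groups. The 8 matching pGal libraries had a lowest, median and highest level of 305, 836 and 1277 CPM, the 6 OVA libraries 470, 1064 and 1276 CPM, and the 6 saline libraries 186, 469 and 768 CPM. The ranges overlapped, although 5 of 6 OVA libraries and 6 of 8 pGal libraries were above the saline mean. The means were 798 ± 381 CPM after pGal (SD, n = 8), 1000.3 ± 308 CPM after OVA (SD, n = 6) and 475 ± 235 CPM after saline (SD, n = 6).

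None of these differences was called. The log2 fold change against saline was 1.08 after OVA (SE 0.357, 95% interval 0.34 to 1.82, edgeR adjusted p = 0.129) and 0.75 after pGal (SE 0.336, edgeR adjusted p = 0.519). DESeq2 called the OVA difference (1.07, adjusted p = 0.0412). Without the Cd79a-rich libraries the pGal difference was 0.38, and the OVA difference 0.95. The mitochondrial share ranged between 0.615% and 7.31% after pGal, between 0.717% and 1.18% after OVA and between 0.683% and 2.69% after saline, and its part in the Nfatc1 spread was not tested.

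In therapeutic OT-I cells Nfatc1 had a lowest, median and highest level of 226, 336 and 504 CPM after pGal (n = 8), 201, 441 and 475 CPM after OVA (n = 8), and 206, 244 and 318 CPM after saline (n = 6). Against saline the log2 fold change was 0.49 after OVA (SE 0.174, edgeR adjusted p = 0.207) and 0.37 after pGal (SE 0.173, edgeR adjusted p = 0.734). With all libraries as labelled the OVA value was 0.78 (edgeR adjusted p = 0.361). Saline-treated OT-II cells averaged 475 ± 235 CPM and OT-I cells 262 ± 45.6 CPM (SD, n = 6 each). That log2 fold change of 0.87 (SE 0.310) missed the threshold (edgeR adjusted p = 0.0717), was called without the Cd79a-rich libraries (1.03, edgeR adjusted p = 0.0292) and by DESeq2 (0.87, adjusted p = 0.0297), and was 0.47 as labelled. Here edgeR called 0 of 5 members, 2 had an unadjusted p under 0.05, and 9% of 15747 genes were called.

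Nfatc1 levels of the 11 libraries whose lineage genes went against the label are given one by one. The libraries labelled OT-I OVA 6 and 8, with Cd4 and little Cd8a, had 1577 and 1103 CPM of Nfatc1, above all 8 matching OT-I OVA libraries. The libraries labelled OT-II OVA 6 and 8, with Cd8a and little Cd4, had 508 and 392 CPM. The 2 lineages overlapped among the 11. Of those labelled saline, OT-I 3 and 6 had 825 and 237 CPM and OT-II 3 had 333 CPM. Those labelled pGal had 738 and 476 CPM for OT-I 5 and 7 and 306 and 294 CPM for OT-II 5 and 7. No test was run on them.

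**Figure D3:**
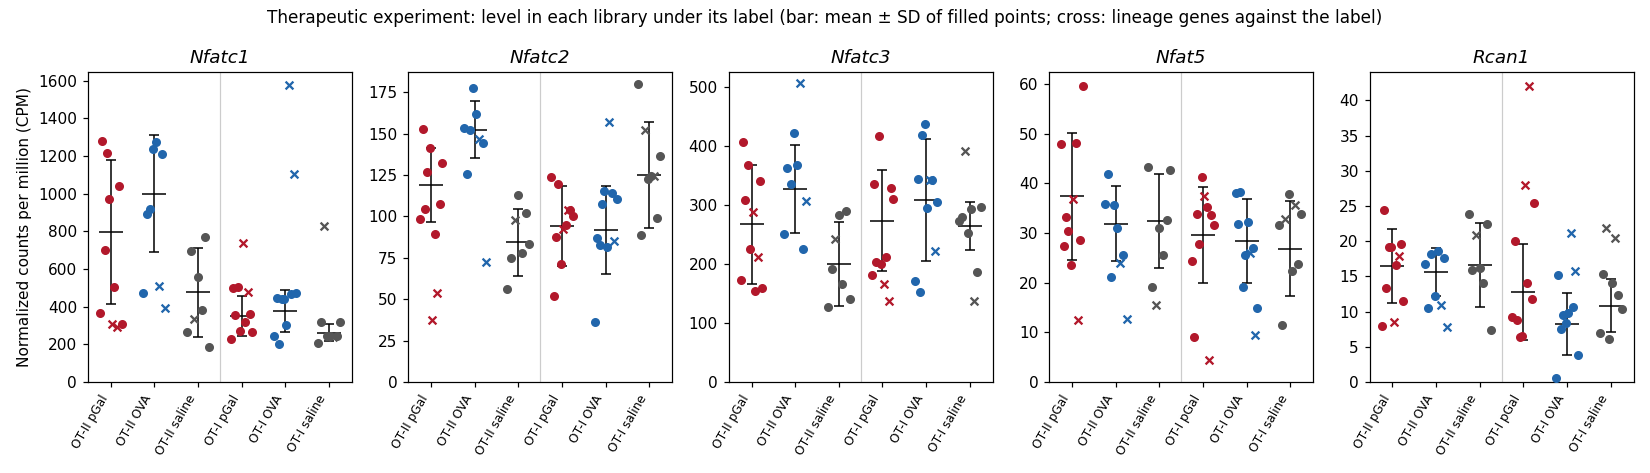
Normalized CPM of each member in the 53 therapeutic libraries, by labelled cell type and treatment; filled points are the 42 libraries whose Cd4 and Cd8a match the label, crosses the other 11, and bars the mean and SD of the filled points. Nfatc2 in OT-II cells lay between 126 and 177 CPM after OVA and between 56.2 and 113 CPM after saline, with no overlap.

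Nfatc2 encodes the form that is abundant in resting T cells and is ready to enter the nucleus on stimulation. In therapeutic OT-II cells it stood at a lowest, median and highest level of 89.3, 117 and 153 CPM after pGal (n = 8). The 6 OVA libraries had 153, 126, 152, 177, 162 and 144 CPM, and the 6 saline libraries 56.2, 74.7, 113, 77.7, 102 and 83.4 CPM. All OVA libraries were above all saline libraries, and the pGal libraries overlapped both. The share of all genes with such a separation was not counted.

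Between OVA and saline the means were 152 ± 17.3 and 84.5 ± 20.3 CPM (SD, n = 6 each). The log2 fold change was 0.85 (SE 0.175, 95% interval 0.49 to 1.21, edgeR adjusted p = 0.0144). It was 1 of 5 members called, where 1.54% of 14244 genes were called. The call was kept in 20 of 20 fits that left out 1 library (0.78 to 0.96) and in 23 of 26 alternatives in all. Among the losses were the fits with all libraries as labelled (0.74, edgeR adjusted p = 0.129) and without the Cd79a-rich libraries, 1 of them after OVA and 1 after saline (0.90, edgeR adjusted p = 0.0623). The 9 B cell markers summed to 97.1 to 537 CPM after OVA and 104 to 623 CPM after saline. After pGal the log2 fold change against saline was 0.51 (SE 0.164, edgeR adjusted p = 0.291), with 8 of 8 pGal libraries above the saline mean, and pGal against OVA gave -0.34 (SE 0.162, edgeR adjusted p = 0.672). In both of these edgeR called 0 of 5 members; 2 and 1 members had an unadjusted p under 0.05, DESeq2 called none, and 0.00702% and 0% of 14244 genes were called.

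In therapeutic OT-I cells both antigen groups had lower means of Nfatc2 than the saline group, without passing the test. Its lowest, median and highest levels were 52.1, 97.5 and 124 CPM after pGal (n = 8), 36.0, 97.3 and 115 CPM after OVA (n = 8) and 89.0, 124 and 180 CPM after saline (n = 6). The ranges overlapped, although 0 of 8 libraries of either antigen were above the saline mean. The log2 fold changes against saline were -0.46 after pGal (SE 0.219, edgeR adjusted p = 0.746) and -0.50 after OVA (SE 0.219, edgeR adjusted p = 0.329), neither called. In the tests against saline 0% of 14581 genes were called after pGal and 0.686% after OVA, with 0 of 5 members called by edgeR or DESeq2 and 2 members with an unadjusted p under 0.05 in each.

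Tested directly, the OVA effect on Nfatc2 in OT-II cells exceeded that in OT-I cells by 1.30 on the log2 scale (SE 0.289, 95% interval 0.72 to 1.88, edgeR adjusted p = 0.0480). It was 1 of 5 members called, where 0.121% of 15747 genes were called and the median of all genes was -0.17. The call was kept by DESeq2 only among 6 alternatives, whose adjusted p ran between 0.0109 and 0.458. The pGal effect against saline differed by 0.91 (SE 0.280, edgeR adjusted p = 0.874). For that test and for pGal against OVA edgeR and DESeq2 called 0 of 5 members, 1 and 0 members had an unadjusted p under 0.05, and 0% of 15747 genes were called. Saline-treated OT-II cells had 84.5 ± 20.3 and OT-I cells 125 ± 32.1 CPM of Nfatc2 (SD, n = 6 each), a log2 fold change of -0.56 (SE 0.212) that missed the threshold (edgeR adjusted p = 0.0932).

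In prophylactic OT-I cells Nfatc2 levels differed by batch. The 6 batch 2 libraries had 156 to 183 CPM and the 9 batch 1 libraries 59.5 to 108 CPM, with no overlap. After allowing for the batch, OT-I cells had log2 fold changes against saline of 0.31 after pGal (SE 0.110, edgeR adjusted p = 0.131) and 0.24 after OVA (SE 0.110, edgeR adjusted p = 0.234). All 5 libraries of each antigen were above the saline mean of their batch, yet neither was called.

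In prophylactic OT-II cells Nfatc2 had 156, 152, 108, 146 and 120 CPM in the pGal libraries, 82.6, 76.0, 149 and 113 CPM in the OVA libraries, and 54.6, 94.0, 76.7, 157 and 85.7 CPM after saline. The groups overlapped. For pGal against saline the log2 fold change of 0.61 (SE 0.218) was not called (edgeR adjusted p = 0.0907). It was called in batch 1 alone (0.87, edgeR adjusted p = 0.0284), where in batch 2 it was 0.15, and also without the Cd79a-rich libraries (0.84, edgeR adjusted p = 0.0181) and by DESeq2 (0.62, adjusted p = 0.0264). Leaving out 1 library brought the call without batch 2 saline library 1 (0.78) or batch 2 pGal library 2 (0.73).

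Nfatc3, which shares much of its regulation with Nfatc2, was called nowhere. Its log2 fold changes against saline ran between 0.00 and 0.72 over 8 comparisons, which share their saline libraries in pairs. The value of 0.72 (SE 0.258, edgeR adjusted p = 0.171) was that of OVA in therapeutic OT-II cells, at 328 ± 74.8 CPM after OVA and 200 ± 70.7 CPM after saline (SD, n = 6 each). In prophylactic OT-II cells Nfatc3 averaged 338 ± 62.8 CPM after pGal and 264 ± 62.4 CPM after saline (SD, n = 5 each). That difference of 0.41 (SE 0.173, edgeR adjusted p = 0.150) was called in batch 1 alone (0.63, edgeR adjusted p = 0.00925) and without batch 2 pGal library 2 (0.58, edgeR adjusted p = 0.0104), but was 0.02 in batch 2. As with Nfatc2, levels in OT-I cells differed by batch, at 322 to 475 CPM in 6 batch 2 libraries and 212 to 336 CPM in 9 batch 1 libraries, which overlapped between 322 and 336 CPM.

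Nfat5, which drives genes for osmolyte transport and synthesis, was also called nowhere. Its log2 fold changes against saline ran between -0.03 and 0.36 over 8 comparisons, and 0.36 (SE 0.153, edgeR adjusted p = 0.194) was that of OVA in prophylactic OT-I cells. In prophylactic OT-II cells Nfat5 averaged 24.0 ± 6.27 CPM after pGal (SD, n = 5), 23.2 ± 4.14 CPM after OVA (SD, n = 4) and 18.9 ± 4.71 CPM after saline (SD, n = 5). Its highest therapeutic group mean was 37.3 ± 12.9 CPM in therapeutic OT-II cells after pGal (SD, n = 8), where the saline mean was 32.4 ± 9.48 CPM (SD, n = 6), and all 6 therapeutic groups overlapped in range. Saline-treated prophylactic OT-II and OT-I cells had 18.9 ± 4.71 and 15.7 ± 4.27 CPM (SD, n = 5 each). That difference of 0.44 (SE 0.213, edgeR adjusted p = 0.186) was called without OT-II batch 1 saline library 1 (0.62, edgeR adjusted p = 0.0354). It was 0.51 in batch 1 and -0.07 in batch 2. In this comparison edgeR called 0 of 5 members, as did DESeq2, 1 had an unadjusted p under 0.05, and 14.7% of 14845 genes were called.

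**Figure D4:**
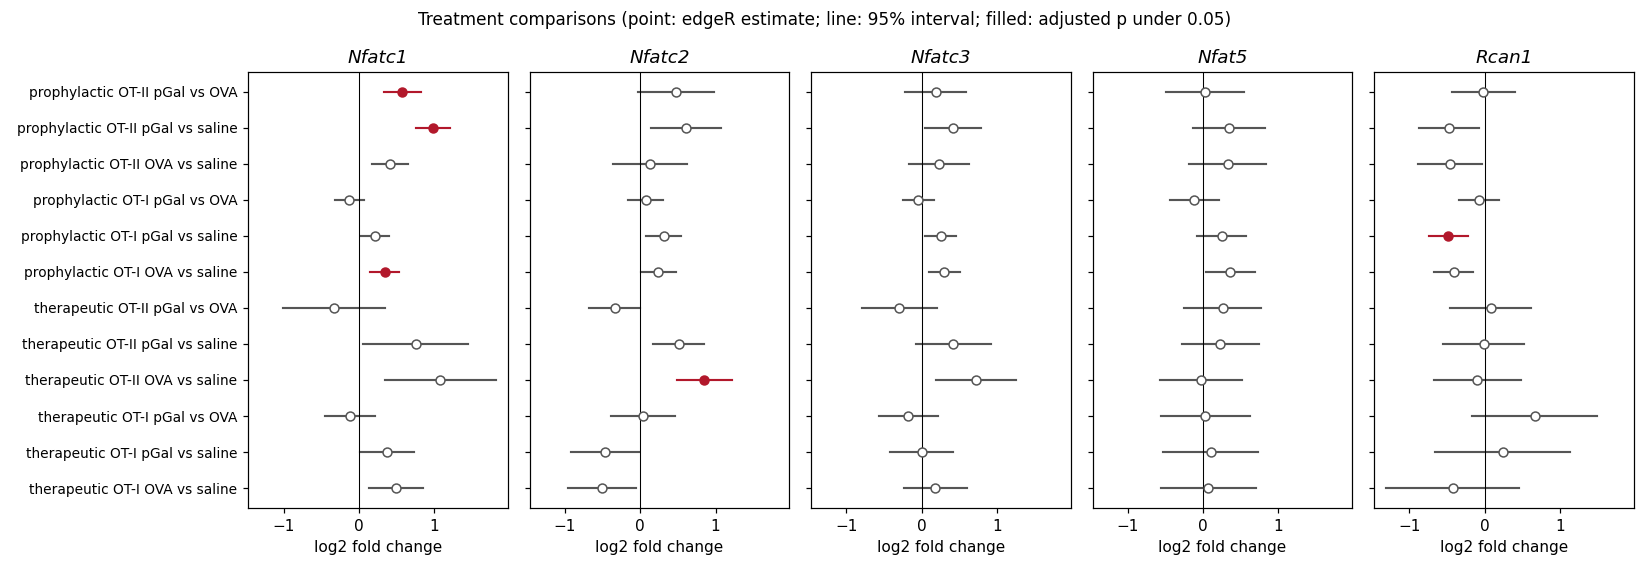
Log2 fold changes of each member in the 12 treatment comparisons; points are edgeR estimates, lines 95% intervals, and filled points have an adjusted p under 0.05. The filled points are Nfatc1 in prophylactic OT-II cells for pGal against OVA (0.58) and against saline (0.99) and in prophylactic OT-I cells for OVA against saline (0.34), Nfatc2 in therapeutic OT-II cells for OVA against saline (0.85), and Rcan1 in prophylactic OT-I cells for pGal against saline (-0.48).

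Rcan1 has alternative promoters, and the 5 protein-coding transcripts annotated in GENCODE begin at 5 positions on the minus strand of chromosome 16 (gene at chr16:92391953-92470867, GRCm38). The downstream promoter makes a shorter isoform and is known in mouse and human cells to be induced by calcineurin and NFAT. The 250 bases before both starts listed by RefSeq are shown because the gene totals cannot tell which was used. Capitals mark GGAAA or its reverse complement TTTCC, the core of NFAT binding sites, and TGANTCA, which reads the same on both strands and is the core of AP-1 sites. The windows, from RefSeq on GRCm38.p6, are chr16:92400079-92400328 for the downstream start and chr16:92466170-92466419 for the upstream start, both on the minus strand.
Rcan1 downstream start: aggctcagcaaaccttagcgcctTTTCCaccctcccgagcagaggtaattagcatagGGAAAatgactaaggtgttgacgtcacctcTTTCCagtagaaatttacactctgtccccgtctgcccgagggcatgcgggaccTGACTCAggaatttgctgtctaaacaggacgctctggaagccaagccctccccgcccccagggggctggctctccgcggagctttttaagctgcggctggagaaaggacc
Rcan1 upstream start: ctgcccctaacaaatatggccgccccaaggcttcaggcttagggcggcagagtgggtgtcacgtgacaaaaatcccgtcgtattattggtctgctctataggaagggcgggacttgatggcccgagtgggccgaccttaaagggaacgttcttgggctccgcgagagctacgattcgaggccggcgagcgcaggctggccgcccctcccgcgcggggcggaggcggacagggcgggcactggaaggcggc

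The downstream window held 3 matches to GGAAA on either strand and 1 to TGANTCA, with no overlap between them, and the upstream window held 0 of each. The matches to the NFAT core began 227, 193 and 163 bases before the start and the AP-1 core 110 bases before it. Of 32851 windows of the same length in the table, 55.6% held at least 1 GGAAA on either strand, 6.39% at least 3, and 0.457% at least 3 together with TGANTCA. The table held windows for 4 of the 5 members. Those of Nfatc2 had 3 and 1 matches to GGAAA on either strand, those of Nfatc3 1 and 0, and that of Nfat5 2, and none of them held TGANTCA. A match describes the letters only.

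In prophylactic OT-I cells Rcan1 had 12.1, 13.7, 15.2, 13.5 and 13.4 CPM after pGal. The OVA libraries had 12.8, 14.2, 15.7, 15.3 and 12.9 CPM, and the saline libraries 20.6, 17.0, 17.3, 23.5 and 17.4 CPM. Every library of either antigen was below every saline library. The share of all genes that separate in this way was not counted, so this only describes the levels. The highest saline library, batch 2 library 1, was 1 of the 4 rich in Cd79a.

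After pGal and after saline Rcan1 averaged 13.6 ± 1.12 and 19.2 ± 2.83 CPM in these OT-I cells (SD, n = 5 each). The log2 fold change was -0.48 (SE 0.123, 95% interval -0.74 to -0.22, edgeR adjusted p = 0.0431), and Rcan1 was 1 of 5 members called, where 3.35% of 13802 genes were called. The call was kept in 4 of 15 fits that left out 1 library (-0.53 to -0.40, adjusted p 0.0387 to 0.124) and in 6 of 23 alternatives in all. It was lost without any 1 of the 5 saline libraries, batch 1 pGal library 1 or 2, either batch 2 pGal library, or batch 1 OVA library 1 or 2. Within batches it was -0.41 in batch 1 (edgeR adjusted p = 0.486) and -0.61 in batch 2 (edgeR adjusted p = 0.215), and without the Cd79a-rich library it was -0.40 (edgeR adjusted p = 0.113). The same 9 B cell markers summed to 48.0 to 95.7 CPM after pGal and 58.9 to 1429 CPM after saline. After OVA the difference from the same saline libraries was -0.41 (SE 0.123), not called by edgeR (adjusted p = 0.0664) but called by DESeq2 (-0.43, adjusted p = 0.00987).

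In prophylactic OT-II cells Rcan1 had 14.1, 16.9, 17.7, 17.3 and 19.3 CPM in the pGal libraries, 18.9, 14.8, 12.4 and 23.9 CPM in the OVA libraries, and 26.1, 18.0, 18.5, 29.7 and 28.4 CPM after saline. The saline libraries spread widely and overlapped both antigen groups. The log2 fold changes against saline, -0.48 after pGal (SE 0.185, edgeR adjusted p = 0.119) and -0.46 after OVA (SE 0.197, edgeR adjusted p = 0.627), were not called. For Rcan1 no difference between the cell types in these effects was called, and between pGal and saline it was 0.01 with a 95% interval from -0.44 to 0.45.

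In the therapeutic experiment Rcan1 was called in no comparison. In OT-II cells it averaged 16.5 ± 5.25 CPM after pGal (SD, n = 8), 15.6 ± 3.41 CPM after OVA and 16.7 ± 5.96 CPM after saline (SD, n = 6 each). In OT-I cells it averaged 12.8 ± 6.79 CPM after pGal, 8.18 ± 4.42 CPM after OVA (SD, n = 8 each) and 10.8 ± 3.78 CPM after saline (SD, n = 6). All ranges overlapped with those of the other treatments of the same cells. The lowest value, 0.508 CPM from 17 counts, was in OT-I OVA library 10, which also had the lowest Nfatc2 level of its group, 36.0 CPM. Between pGal and OVA in OT-I cells 0% of 14581 genes were called; edgeR and DESeq2 called 0 of 5 members, and no member had an unadjusted p under 0.05.

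Ordered by group mean within an experiment, neighbouring groups overlapped in range for all 5 members at every step but 1. That step was Nfatc1 between prophylactic OT-II cells after pGal and after OVA, a comparison in which 1.87% of all genes were called. How many of all genes show such a gap was not counted, so the step only describes these levels. In the therapeutic experiment the order of Nfatc1 means was OT-II OVA, OT-II pGal, OT-II saline, OT-I OVA, OT-I pGal and OT-I saline. For Rcan1 in the prophylactic experiment both saline groups were the highest.

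The genes of the pathway were taken from 6 lists with 58 genes, all found in the tables. In prophylactic OT-II cells after pGal against saline 11.7% of all genes were called, and 2 of 12 genes of calcium entry and signal relay were called, both higher, a count near that background. They were Calm3, a calmodulin gene (log2 fold change 0.83, SE 0.188, edgeR adjusted p = 0.0114), and Stim2, a calcium sensor of the endoplasmic reticulum (0.43, SE 0.114, edgeR adjusted p = 0.0256). In prophylactic OT-I cells Calm3 was called higher after pGal (0.49) and after OVA (0.56), and Stim2 after OVA (0.64). In therapeutic OT-II cells 1 of 12 was called after OVA against saline, Stim1, a sensor of the same kind (0.82, SE 0.189, edgeR adjusted p = 0.0292). There 1.54% of 14244 genes were called. The OVA effect on Stim1 was larger in OT-II than in OT-I cells by 1.12 (SE 0.251, edgeR adjusted p = 0.0480). In that test 0.121% of 15747 genes were called and the median of all genes was -0.17. With all libraries as labelled it called 0 genes, so the Stim1 call was lost there.

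Of the calcineurin subunit genes 4 of 5 were tested. Ppp3cc, a catalytic subunit gene, was higher in prophylactic OT-II cells after pGal than after saline (0.56, SE 0.140, edgeR adjusted p = 0.0187). In saline-treated cells Ppp3cc was lower in OT-II than in OT-I cells in both experiments (-1.34, SE 0.134, edgeR adjusted p = 9.4e-08 in the prophylactic and -0.86, SE 0.163, edgeR adjusted p = 0.000179 in the therapeutic one). Ppp3ca, another catalytic subunit gene, was lower in therapeutic OT-II than OT-I cells after saline (-1.33, SE 0.216, edgeR adjusted p = 1.78e-05). Rcan3, a relative of Rcan1, was higher in OT-II than in OT-I cells after saline in both experiments (1.31 and 2.01, edgeR adjusted p = 0.000815 and 9.08e-05). Cabin1, which encodes a calcineurin-binding inhibitor, was the 1 of 7 called in its list in prophylactic OT-II cells after pGal against saline (0.49, SE 0.115, edgeR adjusted p = 0.0140). There 11.7% of 14128 genes were called, so this count was near the background.

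Among 10 kinases and cofactors that act on NFAT, 2 were called lower and none higher in prophylactic OT-II cells after pGal against saline, where 755 of 14128 genes were called lower and 900 higher. Csnk1e encodes a casein kinase (-0.82, SE 0.143, edgeR adjusted p = 0.00263), a family that phosphorylates NFAT, and Homer3 a scaffold that competes with calcineurin for NFAT (-1.59, SE 0.415, edgeR adjusted p = 0.0240). Csnk1e was also lower in therapeutic OT-II cells after OVA than after saline (-0.85, SE 0.220, edgeR adjusted p = 0.0499). The median log2 fold change of the 10 genes in prophylactic OT-II cells after pGal against saline was 0.12, opposite in sign to the 2 called, and 0.04 over all genes.

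Of 19 genes described as NFAT targets in T cells, a list chosen with earlier results of these data known, 17 were tested within each prophylactic cell type. In OT-II cells after pGal against saline 7 of 17 were called higher and none lower, where 900 of 14128 genes were called higher and 11.7% called in either direction, with a list median of 0.47 against 0.04 over all genes. They were led by Ctla4, which encodes an inhibitory receptor (3.21, SE 0.284, edgeR adjusted p = 2.4e-05), Egr3, an early response factor gene (1.49, SE 0.264, edgeR adjusted p = 0.00283), and Pdcd1, which encodes the receptor PD-1 (1.69, SE 0.301, edgeR adjusted p = 0.00293). Against OVA 1 of 17 was called, Ctla4 (1.90, SE 0.291, edgeR adjusted p = 0.00794), where 1.87% of all genes were called. After OVA against saline the list median was 0.42, close to that after pGal. There 0 of 17 were called, and 0.163% of all genes. In OT-I cells 4 of 17 were called higher after pGal and 4 of 17 after OVA, Pdcd1, Ctla4, Il2 and Ifng in each, where 3.35% and 5.39% of all genes were called in either direction. Pdcd1 stood at 2.05 after pGal (SE 0.317, edgeR adjusted p = 0.00512) and 2.79 after OVA (SE 0.323, edgeR adjusted p = 0.000331). With no antigen given, 8 of 18 were called higher and 1 lower in prophylactic OT-II than OT-I cells. That list median was 0.90, and 14.7% of all genes were called. In the therapeutic experiment 6 of 18 were called higher and 3 lower, with a list median of 0.64, where 9% of all genes were called.

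In therapeutic OT-II cells the target genes split after OVA against saline: of 18 tested, 2 were called higher and 2 lower, and the list median was -0.65 against -0.07 over all genes. In this comparison 1.54% of 14244 genes were called. Pdcd1 (1.68, SE 0.354, edgeR adjusted p = 0.0170) and Il4, an interleukin gene (2.38, SE 0.516, edgeR adjusted p = 0.0210), were higher. Ifng, the interferon gamma gene (-2.32, SE 0.517, edgeR adjusted p = 0.0239), was lower. In therapeutic OT-I cells 1 of 17 was called after OVA against saline, Cd40lg, the CD40 ligand gene (-2.09, SE 0.270, edgeR adjusted p = 0.000534). There 0.686% of 14581 genes were called.

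Of 5 genes described as Nfat5 targets, 1 was called in prophylactic OT-I cells against saline, S100a4, a calcium-binding protein gene, after pGal (1.53, SE 0.366, edgeR adjusted p = 0.0339) and after OVA (2.84, SE 0.379, edgeR adjusted p = 0.000726). Of all genes, 3.35% were called after pGal and 5.39% after OVA. In therapeutic saline-treated cells S100a4 (-1.89, SE 0.534, edgeR adjusted p = 0.0165) and Slc6a6, the taurine transporter gene (-0.82, SE 0.271, edgeR adjusted p = 0.0487), were lower in OT-II than in OT-I cells. In this comparison 9% of 15747 genes were called.

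The genes most alike to each member were found by Pearson correlation of log2 CPM over 71 libraries, after the mean of each table and cell type was subtracted, among 8688 genes with a mean of at least 10 CPM. These libraries share treatments and library quality, so the values describe likeness only. Nfatc1 came closest to Usp38 (0.90), Spata13 (0.90) and Arhgef3 (0.89). For Nfatc3 they were Ankfy1 (0.87), Sema4d (0.86) and Mbnl1 (0.84), and for Rcan1 Pex26 (0.80), Pomk (0.80) and Slc5a6 (0.78). Nfat5 came closest to Xiap (0.70), Tnik (0.66) and Marf1 (0.66), and Nfatc2 to Epg5 (0.63) and Sptbn1 (0.63). Among the members Nfatc1 and Nfatc3 were the most alike (r = 0.78, 71 libraries), followed by Nfatc2 and Nfatc3 (r = 0.56), while Rcan1 and Nfat5 ran opposite (r = -0.34).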

How the data were processed

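The authors deposited 3 tables of estimated counts for protein-coding genes, made with kallisto 0.46.1 on GRCm38 per the submitters' processing notes; the values are whole numbers, and how transcripts were summed to genes is not stated there. Per the labels' protocols, RNA was amplified with SmartSeq chemistry and read as paired 150-base reads. Such reads carry no molecular identifiers. Libraries were the replicates, so the spread between libraries, of pooled mice in the prophylactic experiment, was used as the error.

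Low genes were removed with filterByExpr, libraries were scaled by TMM, and the robust quasi-likelihood test of edgeR 4.0.16 (limma 3.58.1, R 4.3.3) was run on the rounded counts. Treatments were compared per experiment and cell type, with a batch term in the prophylactic experiment; cell types were compared in 1 fit per experiment, with batch within cell type. CPM values are TMM-scaled over all libraries of an experiment. Therapeutic fits held the 42 libraries whose lineage genes match the label, while no prophylactic library was left out by that rule. The scripts were tested on simulated counts with changes planted in pGal libraries, and pGal against OVA recovered part of them. Of 2-fold changes 50.7% were recovered in prophylactic OT-I, 31.3% in prophylactic OT-II, 29.9% in therapeutic OT-I and 31.3% in therapeutic OT-II cells. Of 1.5-fold changes these shares were 31.3%, 13.4%, 5.97% and 1.49%. A value that was not called therefore does not show that a difference was absent. Alternatives were DESeq2 1.42.0, RLE size factors, no filter, each library left out, each batch alone, libraries rich in B cell transcripts or with the other lineage left out, all libraries as labelled, and a replicate block. Leaving out therapeutic libraries was added after the data were seen.

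The members and the gene lists were chosen with earlier results of these data known. Per list and comparison at most 3 called genes were to be named, those with the smallest p, and per member the 3 most alike genes; not every such gene is given. Transcript starts come from GENCODE vM21.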

Additional observations from a re-analysis of the deposited data

Results flagged for a closer look

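Nfatc1 in prophylactic OT-II cells after OVA had 1 high library, batch 2 library 2, at 483 CPM against 411 CPM for the next of 4. It is the library with the highest Cd79a level of the prophylactic experiment, 1389 CPM. Nfatc2 in therapeutic OT-I cells after OVA had 1 low library, library 10, at 36.0 CPM against 81.6 CPM for the next of 8. These were 2 of 60 combinations of member and group checked, and chance alone flags about 1 in 20 of them.

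The effect of treatment differed between OT-II and OT-I cells, by a test of the difference itself, for Nfatc1 in the prophylactic experiment, by 0.70 on the log2 scale for pGal against OVA and 0.78 for pGal against saline. The pGal against OVA call was kept in 27 of 37 alternatives and the pGal against saline call in 36 of 37. For Nfatc2 in the therapeutic experiment the effect of OVA against saline differed by 1.30 (edgeR adjusted p = 0.0480). That call was kept in 1 of 6 alternatives, and leaving out 1 library was not run for it.

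Nfatc2 in OT-I cells stood above the saline mean of its batch in all prophylactic libraries of either antigen (5 of 5 after pGal, log2 fold change 0.31, and 5 of 5 after OVA, 0.24). In the therapeutic experiment it stood below the saline mean in all 8 libraries of either antigen (-0.46 after pGal and -0.50 after OVA). This difference between the experiments was not tested.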

How the results depend on the processing

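Of the members called by edgeR, DESeq2 gave other counts in 5 comparisons: 2 against 1 for prophylactic OT-I OVA against saline, 2 against 1 for OT-II pGal against saline and for therapeutic OT-II OVA against saline, and 1 against 0 for prophylactic OT-II OVA against saline and for therapeutic OT-II against OT-I after saline. RLE size factors left 0 for prophylactic OT-I OVA against saline and for the therapeutic difference between cell types in OVA against saline, and no filter left 0 for both of these and for prophylactic OT-I pGal against saline. All libraries as labelled left 0 for therapeutic OT-II OVA against saline and its difference between cell types. Batch 1 alone left 0 for both OT-I comparisons with saline and gave 3 for OT-II pGal against saline. Batch 2 alone left 0 for these 3, for OT-II pGal against OVA and for both called prophylactic differences between cell types; Nfat5 in OT-II against OT-I after saline was -0.068 there. Without libraries rich in B cell transcripts 0 remained for both prophylactic OT-I comparisons with saline, therapeutic OT-II OVA against saline and its difference between cell types, while 2 were called for prophylactic OT-II pGal against saline and 1 for therapeutic OT-II against OT-I after saline. Without libraries with the other lineage 0 remained for prophylactic OT-I pGal against saline.

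Leaving out 1 library gave 0 to 1 members called for prophylactic OT-I pGal and OVA against saline, OT-II pGal against OVA, its difference between cell types and OT-II against OT-I after saline, and 1 to 3 for OT-II pGal against saline. For the therapeutic comparisons between cell types it was not run.

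Same-numbered OT-II and OT-I libraries did not deviate together throughout (lowest r -0.09 over 14 prophylactic and -0.01 over 19 therapeutic pairs). Their median r was 0.199 in the prophylactic and 0.274 in the therapeutic experiment. Same-numbered libraries of different treatments within a cell type had lower medians. These ran between -0.281 and 0.196 in the prophylactic and between -0.272 and 0.163 in the therapeutic experiment. Mice received both cell types, and therapeutic libraries against the label carry the same numbers in both, apart from OT-I saline 6. Whether same-numbered OT-II and OT-I libraries share mice was therefore not settled. Outside the replicate block the numbers were not taken as pairs, so independence of the libraries is an assumption there. The replicate block joined different libraries in different fits. Within a cell type it joined same-numbered libraries of different treatments, by batch in the prophylactic experiment. Between cell types it joined same-numbered OT-II and OT-I libraries of the same treatment. It left 0 members called for prophylactic OT-I pGal and OVA against saline, OT-II pGal against OVA and its difference between cell types. The same held for therapeutic OT-II OVA against saline and its difference between cell types. With the block Nfatc1 differed between cell types by 0.73 for pGal against OVA (edgeR adjusted p = 0.0566) and 0.79 for pGal against saline (0.0194), and Nfatc2 was 0.84 for therapeutic OT-II OVA against saline (0.0671). The cause of these changes was not tested.

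Over all genes DESeq2 called more than 1.5 times as many as edgeR in most comparisons, for example 914 against 264 for prophylactic OT-II pGal against OVA and 714 against 219 for therapeutic OT-II OVA against saline. The 67 other member values, none with an unadjusted p under 0.05, were never called; 36 changed sign under some setting, none of them larger than 0.40 in size. One library had 17 estimated counts of Rcan1, the fewest of that gene.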
